A study of Homo sapiens with 114 samples.

Results

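The proteasome subunits described here are 34 human genes that encode the constitutive core particle and the regulatory particle of the 26S proteasome, together with 3 chaperones that assemble the regulatory particle. They were chosen by name, from the known makeup of the complex, with earlier results of these data known. Of the 34, 30 were measured among 19775 genes of the array table, each on the brightest of its probe sets. PSMA6 was carried only by probe sets that also name PRORP, and PSMC5, PSMD7 and PSMD13 had no probe set under their name in the annotation used, so these 4 genes are not analysed here. The 30 genes had log2 values between 8.17 and 14.0 on every array, and all of them passed the filter on low values in every fit.

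The proteasome degrades proteins that carry ubiquitin chains. Its barrel-shaped core particle has outer alpha rings that form a gate and inner beta rings that hold the proteolytic sites, and the regulatory particle on top has a base of ATPases that unfold the substrate and a lid that removes the ubiquitin. When proteasome capacity falls short, mammalian cells raise the transcription of most subunit genes together through the factor NFE2L1, and the oxidant-responsive factor NRF2 can raise some of them.

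RNA from HK-2, an immortalized line derived from human kidney proximal tubule, was measured on Affymetrix arrays after exposure to 9 compounds, to look for signatures of toxicity. The 114 arrays form 38 groups of 3 cultures, 26 treated and 12 vehicle controls. The compounds are named by the abbreviations of the labels. Only the labels of the CsA arrays and their controls also give a lab number. CsA, Fk, Ra, CdCl and Di were each given at 1 dose, with RNA taken at 12 and 48 h. The others had a low and a high dose, and RNA was taken at 24 and 48 h for Aa, Kbr and Nnm and at 24 and 72 h for Ota. Control cultures of the same time received the vehicle, and Kbr with Nnm, Fk with Ra, and CdCl with Di shared their controls. HK-2 is 1 immortalized line, grown with epidermal growth factor, hydrocortisone, insulin and transferrin in the medium of all groups, and the doses are stated only as high or low. The cultures are labelled as biological replicates, with nothing on whether they came from separate thaws or days, so p-values measure the spread between these cultures. In such bulk RNA fewer cells and less RNA per cell cannot be told apart.

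The deposited values are log2 signals normalized over all arrays together. Differences are given in log2 units ± standard error (SE), treated minus control of the same time, where 1 unit is a doubling. A gene is said to have risen or fallen, or to be called, when its Benjamini-Hochberg adjusted p in limma, over the 10806 to 11138 genes tested, lay under 0.05. Of 5 epithelial markers 4 lay above log2 4, the level for entering the tests, on every array, and CDH1 did so on 111. Of the 8 proximal tubule markers in the table only PAX8 did so on every array, and 6, among them ANPEP and LRP2, on none. Of 4 fibroblast markers COL1A1 and LUM lay above that level on every array, COL1A2 on 2 and PDGFRB on 0, while the leukocyte markers and the 1 podocyte marker measured did so on none. Signal was low on all arrays of Ota high 24 h, with upper quartiles of 6.32 to 6.59 against 6.97 to 7.08 in controls, and on replicate 2 of Ra 48 h, with 6.09.

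The most proteasome genes rose with Kbr at 48 h, 26 at the high and 22 at the low dose. Of all genes 22.2% and 15.2% rose there. Next were Ota high 72 h with 18 (25.3% of all genes) and Di 48 h with 17 (21.4%). CdCl 48 h had 14 (22.9%) and Kbr high 24 h had 13 (8.17%). With Nnm 10 to 15 fell, beside 5.73% to 18.4% of all genes. In Ota high 24 h 15 fell, beside 43.6%. CsA, Fk and Ra gave 0 calls, beside at most 7.46% of all genes, called lower in Ra 48 h. Over the 30 genes and 26 treated groups, 780 tests in all, 144 gave a rise, 82 a fall and 554 no call. Among all genes the share called ranged by group from 0% to 29.8% higher and from 0% to 43.6% lower. The regulatory particle scaffold gene PSMD2 rose most often, in 9 groups, followed by PSMC4, PSMD12 and PSMD14 with 8 each, and then by PSMA5, PSMA7, PSMB2, PSMB7, PSMD1, PSMD3 and PSMD11 with 6 each. PSMA3 fell most often, in 8 groups, followed by PSMA5 in 7 and by PSMB7, PSMD4 and PSMD14 in 5 each. PSMA2, PSMD9 and PSMD10 were called least, each with no call in 23 groups. The same gene could rise with some compounds and fall with others, and even move both ways with 1 compound. PSMA5, an alpha ring gene, rose with Kbr, CdCl and Di, fell with Nnm, and with Ota fell in 3 groups and rose in Ota high 72 h. Its other, dimmer probe set moved against the used one in 7 of these 13 calls, at 5.18 in Ota high 24 h, 4.53 in Ota low 24 h, 1.93 in Ota low 72 h, −0.19 in Kbr low 48 h, −1.97 in Kbr high 48 h, −0.54 in CdCl 48 h and −2.21 in Di 48 h, so for these groups the direction of PSMA5 rests on 1 probe set.

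**Figure D1:**
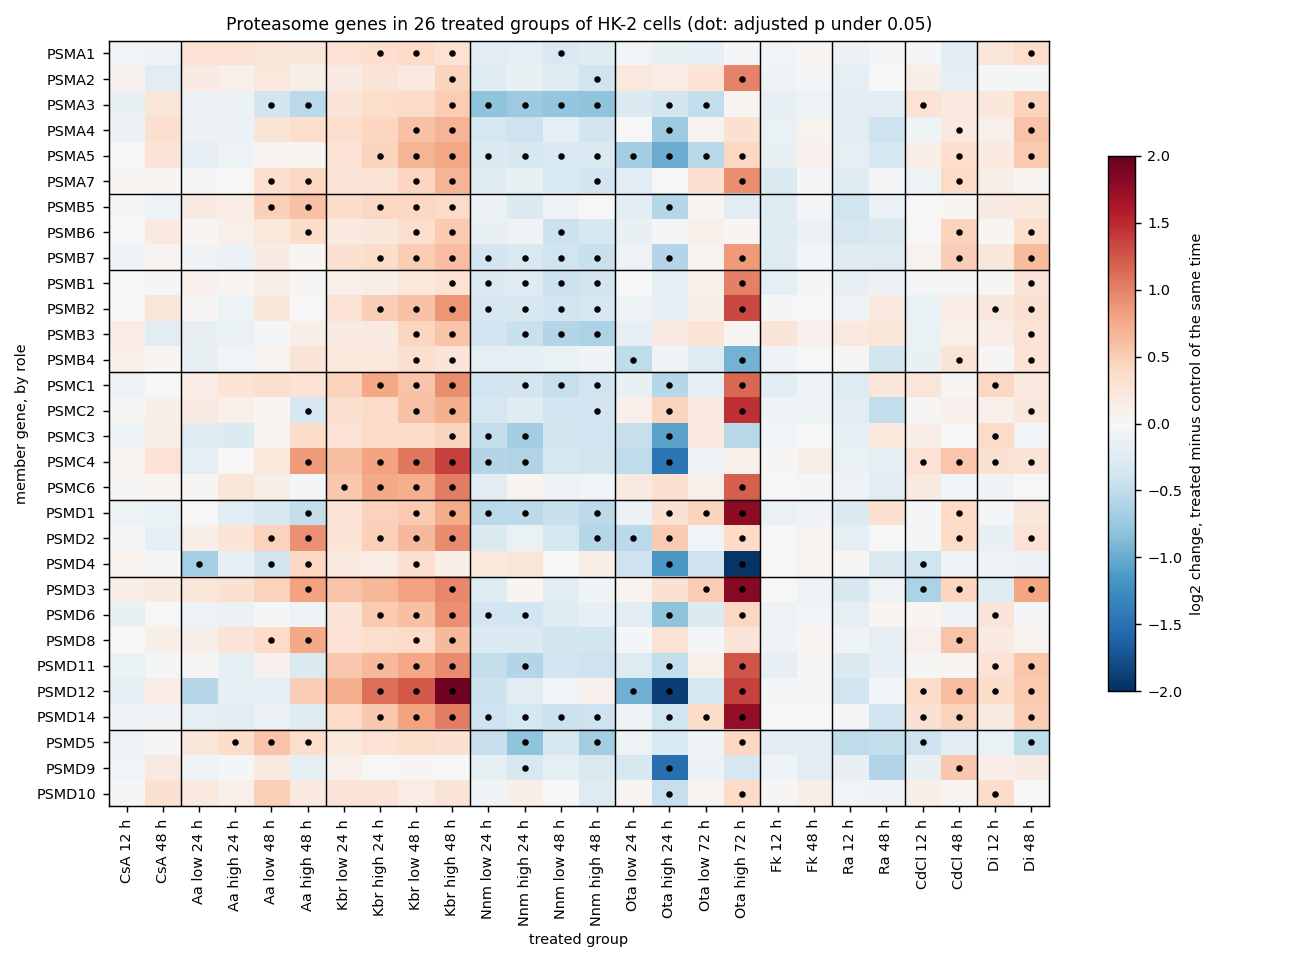
Log2 change, treated minus control of the same time, for the 30 proteasome genes (rows, ordered by role from the alpha ring at the top to the regulatory particle chaperones at the bottom) in 26 treated groups (columns); red is higher, blue lower, and a dot marks adjusted p under 0.05. The 4 Kbr columns are red and the 4 Nnm columns mostly blue, and PSMD4 stands out as blue in Ota high 72 h, at −1.96.

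With Kbr at the high dose for 48 h, 26 of the 30 genes rose and 0 fell, where 22.2% of all genes tested were called higher and 28.9% lower. The members' median change was 0.66, against −0.07 over all genes. The regulatory particle led, with all 5 base ATPases higher at a median of 0.94 and all 6 lid genes higher at a median of 0.95. For the ATPase gene PSMC2 the direction rests on the used probe set, since its further ones differed by −0.81 and −0.22. All 6 alpha ring genes, all 3 catalytic and all 4 other beta ring genes rose too, at medians of 0.59, 0.52 and 0.44. The 3 assembly chaperones PSMD5, PSMD9 and PSMD10 and the ubiquitin receptor gene PSMD4 were the 4 without a call, and PSMD5 had the largest change of them, 0.30.

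The lid gene PSMD12 lay at 11.93, 12.23 and 12.19 on the 3 Kbr high arrays of 48 h, against 9.72, 10.26 and 10.52 on the controls. The groups were far apart, and its rise of 1.95 ± 0.19 (adjusted p = 3e-08) was the largest of any member in any group. PSMC4, an ATPase of the base, had 11.56, 11.49 and 11.68 with Kbr against 10.07, 10.06 and 10.48 in controls, a rise of 1.37 ± 0.172 (adjusted p = 9.02e-07). PSMD14, the deubiquitinase of the lid, had 13.14, 13.15 and 13.11 with Kbr against 11.99, 12.15 and 12.22 in controls, again without overlap, and rose by 1.02 ± 0.134 (adjusted p = 1.73e-06).

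The proteolytic subunits changed less. PSMB7, the trypsin-like subunit, lay at 13.19, 13.40 and 13.39 with Kbr against 12.58, 12.70 and 12.85 in controls and rose by 0.61 ± 0.12 (adjusted p = 0.000196). PSMB6, the caspase-like subunit, rose by 0.52 ± 0.123 (adjusted p = 0.00133). PSMB5, the chymotrypsin-like subunit that proteasome inhibitor drugs bind, had 11.82, 12.16 and 12.40 against 11.65, 11.75 and 11.83, so its groups overlapped slightly, and it rose by 0.38 ± 0.133 (adjusted p = 0.0196). PSMD4 was at 11.50, 11.40 and 11.42 with Kbr and at 11.36, 11.27 and 11.30 in controls, a difference of 0.13 ± 0.101 that did not pass (adjusted p = 0.287).

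The low dose of Kbr for 48 h raised 22 members and lowered 0, where calls among all genes were 15.2% higher and 14.3% lower, with a members' median of 0.47. PSMD12 rose by 1.22 ± 0.19, PSMC4 by 1.06 ± 0.172 and PSMD14 by 0.80 ± 0.134, and PSMB7, PSMB5, PSMB6 and PSMD4 by 0.50, 0.42, 0.34 and 0.33. Between the doses at 48 h only PSMD12 differed, higher at the high dose by 0.73 ± 0.19 (adjusted p = 0.0176), where calls among all genes were 1.71% higher and 6.32% lower, and quantile normalization moved the higher share of these calls from 21.3% to 31.5%. With the replicate number as a block, given because same-numbered cultures of Kbr and Nnm deviated together, 8 members were higher at the high dose and 0 lower, where 4.47% of all genes were called higher and 13.3% lower under that block. Without control replicate 1 of 48 h, 14 members rose with the low dose. Without low dose replicate 1, or without high dose replicate 2 or 3, 0 members differed between the doses, and without high dose replicate 1 there were 2.

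At 24 h the high dose raised 13 members and lowered 0, where 8.17% of all genes were called higher and 13.4% lower, and 23 rose and 0 fell with the replicate block, under which the shares of all genes were 12.8% and 21.7%. PSMD12 lay at 11.78, 11.97 and 11.92 with Kbr against 10.57, 10.77 and 11.02 in controls, and rose by 1.10 ± 0.19 (adjusted p = 0.000333). PSMC4 rose by 0.80, PSMD14 by 0.54, PSMB5 by 0.42 and PSMB7 by 0.37, while PSMB6 at 0.22 and PSMD4 at 0.15 were not called. At the low dose all 30 members had a positive difference at 24 h, with a median of 0.28, but 1 was called higher and 0 lower, where 0.671% of all genes were called higher and 0.689% lower. That gene was the ATPase gene PSMC6, at 0.54 ± 0.126 (adjusted p = 0.0322). With the replicate block 16 members rose there and 0 fell, where that block called 3.64% of all genes higher and 4.12% lower. Without control replicate 3 the count was 3, and without any 1 of the other 5 arrays of the comparison it was 0. Comparing 48 with 24 h, the response to the high dose differed for 0 members in either direction, where 0.58% of all genes were called higher and 1.31% lower and 8 members had an unadjusted p under 0.05, and for 6, all higher at 48 h, with the replicate block, which called 3.14% of all genes higher and 4.58% lower.

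Beside the members, other genes of the ubiquitin and proteasome system were called in Kbr high 48 h. All 3 immunoproteasome genes, which encode the interferon-inducible catalytic subunits, were lower, PSMB9 at −1.97 and PSMB10 at −1.09. Of 4 activator and inhibitor genes tested 2 rose, PSME4 by 1.05 and PSME3 by 0.89, and 1 fell. Of 6 assembly factors that are not members 2 rose, with PSMG1 at 0.76, and PSMG4 fell by 1.70. Of 6 further subunits and bound enzymes 4 rose, the ubiquitin receptor gene ADRM1 by 1.18 and the deubiquitinase gene UCHL5 by 0.95, and of 7 ubiquitin and p97 genes 4 rose, the p97 cofactor genes UFD1 by 1.15 and NSFL1C by 0.91. All 8 ubiquitin shuttle and stress zinc finger genes rose, ZFAND2A by 3.24 and the autophagy receptor gene SQSTM1 by 1.39. Of 7 transcription factor and processing genes 5 rose, MAFF by 1.82 and MAFG by 1.75. All 7 NRF2 targets tested rose, HMOX1 by 3.62 and GCLM by 3.11, and 5 of 6 heat shock genes rose, CHORDC1 by 2.61 and HSPH1 by 2.18. The part of these factors in the rise of the members was not tested. The 3 prime minus 5 prime difference of ACTB, a sign of RNA quality, was 0.885 to 1.31 with Kbr high 48 h. In controls of 48 h it was 0.812 to 1.19, lower in each same-numbered pair, and its part was not tested.

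A pair of sequence motifs was looked up in the promoter windows of the members, taken from RefSeq on GRCh38.p14 and reaching from 250 bases before the annotated start site to 50 after it. Of the 34 genes 29 had such a window, and some had several, 35 in all. The core of the antioxidant response element, to which NRF2 and NFE2L1 bind with small MAF partners, was searched as TGACNNNGC on both strands. It occurred in 9 of the 35 member windows (25.7%), which belong to 9 genes, and in 13.3% of all 35116 windows of that length. The heat shock element core GAANNTTC was in 0 member windows and in 6.77% of all. The sequences that follow were chosen because they belong to the members with the largest rises with Kbr high 48 h (PSMD12 and PSMC4) and with Ota high 72 h (PSMD3 and PSMD1). They are the 250 bases upstream of PSMD12 and PSMD3, and the matches of PSMC4 and PSMD1, which lie after the start site, with their flanks. All are written 5′ to 3′ on the strand of the gene, in lower case with the antioxidant element core in capitals; the PSMC4 match is on the opposite strand.
PSMD12, chr17:67366578-67366827, minus strand: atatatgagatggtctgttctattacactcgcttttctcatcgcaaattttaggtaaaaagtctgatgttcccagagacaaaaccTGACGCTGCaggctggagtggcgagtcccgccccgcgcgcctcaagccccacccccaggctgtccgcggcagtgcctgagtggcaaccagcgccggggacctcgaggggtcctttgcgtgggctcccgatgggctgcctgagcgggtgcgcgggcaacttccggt
PSMD3, chr17:39980557-39980806, plus strand: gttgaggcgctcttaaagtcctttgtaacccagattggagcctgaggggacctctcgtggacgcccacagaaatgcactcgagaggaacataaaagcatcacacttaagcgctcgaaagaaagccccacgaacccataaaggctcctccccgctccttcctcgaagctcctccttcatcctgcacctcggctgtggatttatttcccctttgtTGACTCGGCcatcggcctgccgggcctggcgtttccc
PSMC4, chr19:39971182-39971210, plus strand: acagaggccgGCTTGGTCActatggagga
PSMD1, chr2:231056896-231056916, plus strand: aggaggcgacTGACTGAGCag

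Relative to the start site the PSMD12 match begins at −165 and the upstream PSMD3 match at −37, and PSMD3 has a further match that begins at 33. Those of PSMC4 and PSMD1 begin at 27 and 39. The other genes with a match were PSMA4, PSMB3, PSMC5, PSMD5 and PSMD9. Of these PSMA4 and PSMB3 rose with Kbr high 48 h, PSMD5 and PSMD9 were not called there, and PSMC5 was not measured. The window of PSMD14, which rose by 1.76 with Ota and 1.02 with Kbr, holds no match to these letters. A match is a description of the sequence, and binding was not measured.

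With Nnm the members moved the other way. Nnm was set against the same control arrays as Kbr, so the values of the 2 compounds are not independent of each other. In the 4 groups, low and high dose at 24 h and then at 48 h, 10, 15, 10 and 14 members fell and 0 rose. The share of all genes called lower was 9.13%, 18.4%, 5.73% and 12.3%, and that called higher 9.39%, 17.6%, 8.39% and 15.4%. The members' medians were −0.31, −0.30, −0.33 and −0.37, where the medians over all genes lay between −0.01 and 0.02. No fall reached 2-fold.

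PSMA3, an alpha ring gene, fell in all 4 groups, by 0.80, 0.73, 0.79 and 0.80 in the same order, each ± 0.176. At 48 h it lay at 10.89, 11.63 and 11.16 with the low dose and at 11.10, 11.57 and 10.99 with the high dose, against 11.85, 12.09 and 12.12 in controls. Both dose groups lay below all controls, and replicate 2 was nearest to them. PSMB7 had 12.18, 12.33 and 12.28 with the high dose at 48 h against 12.58, 12.70 and 12.85 in controls, and fell by 0.45 ± 0.12 (adjusted p = 0.00892). It fell in the other 3 groups too, by 0.38, 0.31 and 0.40.

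PSMD14 fell in all 4 groups, by 0.41, 0.35, 0.44 and 0.42, and had 11.39, 11.84 and 11.87 with the high dose at 48 h against 11.99, 12.15 and 12.22 in controls. PSMB6 fell with the low dose at 48 h, by 0.43 ± 0.123 (adjusted p = 0.0224), and was not called in the other 3 groups, at −0.16, −0.06 and −0.33. PSMB5 had differences of −0.12, −0.28, −0.10 and 0.01 and was not called in any. PSMD4 was not called either, at 0.20, 0.24, −0.01 and 0.13. The second largest falls were those of PSMC4 at the low dose for 24 h, by 0.59, of the beta ring gene PSMB3 at the low dose for 48 h, by 0.58, and of the assembly chaperone gene PSMD5 at the high dose, by 0.80 ± 0.214 at 24 h, where it exceeded PSMA3, and by 0.70 ± 0.214 at 48 h. PSMD5 at 48 h had 9.22, 10.17 and 9.10 against 10.16, 10.17 and 10.25, so replicate 2 overlapped the controls.

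With Nnm high 48 h the activator gene PSME3 fell by 0.98 and PSME1 by 0.40, the core assembly factor genes PSMG3 and POMP by 0.92 and 0.39, the deubiquitinase gene USP14 by 0.58 and the ubiquitin ligase gene UBE3C by 0.47, the p97 gene VCP by 0.56 and the shuttle gene UBQLN1 by 0.36. Of the 3 immunoproteasome genes PSMB9 rose by 1.33 and PSMB8 fell by 0.47. Of 7 NRF2 targets 2 rose, TXNRD1 by 1.65 and NQO1 by 1.39, of 6 heat shock genes 2 rose, DNAJB1 by 0.80 and HSP90AA1 by 0.29, and of 7 transcription factor and processing genes 0 were called. At the high dose for 24 h all 7 NRF2 targets rose, SLC7A11 by 3.37 and HMOX1 by 2.72. The part of these factors in the changes of the members with Nnm was not tested. The ACTB difference was 0.9 to 1.22 with Nnm high 48 h and 0.812 to 1.19 in controls. It was higher with Nnm in each same-numbered pair, and its part was not tested either.

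The counts with Nnm depend on single arrays and on the estimate of spread. With the replicate block 21, 20 and 22 members fell in Nnm low 24 h, Nnm low 48 h and Nnm high 48 h, and 0 rose, where 15.8%, 11.8% and 19.1% of all genes were called lower under the block and 16.1%, 14.9% and 22.1% higher. A fit of only the 6 arrays of each comparison called 1, 1, 0 and 0 members in the 4 groups, while 18, 19, 18 and 21 had an unadjusted p under 0.05 in the fit of all 30 arrays of the family. At 24 h the low dose count was 1, 4, 4 and 1 without low dose replicate 1, low dose replicate 3, control replicate 2 and control replicate 3, and the high dose count was 4, 9, 7 and 4 without the same replicates of the high dose and the controls. At 48 h the low dose count was 1, 3, 3 and 2 in that order, and the high dose count was 3, 8 and 4 without high dose replicate 1, control replicate 2 and control replicate 3. Without the Nnm arrays numbered 2, a setting added after earlier results were known, 16 members fell in Nnm low 48 h. Between the doses at 48 h, and between the times at the high dose, 0 members and 0 of all genes were called in either direction (0% each). At an unadjusted p under 0.05 there were 0 and 1 members, and without replicate 2 of the high dose at 48 h or at 24 h, 1 member each was called.

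Kbr and Nnm at the high dose for 48 h were also compared directly. 28 members were higher with Kbr and 0 lower, where 24.2% of all genes were called higher and 32.5% lower, and 20 of them differed by at least 2-fold, with a median of 1.06. PSMD12 was higher with Kbr by 1.86 ± 0.19 (adjusted p = 2.98e-08) and PSMC4 by 1.75 ± 0.172 (adjusted p = 1.75e-08). PSMD10, at 0.51, and PSMD4, at 0.01, were the pair without a call.

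**Figure D2:**
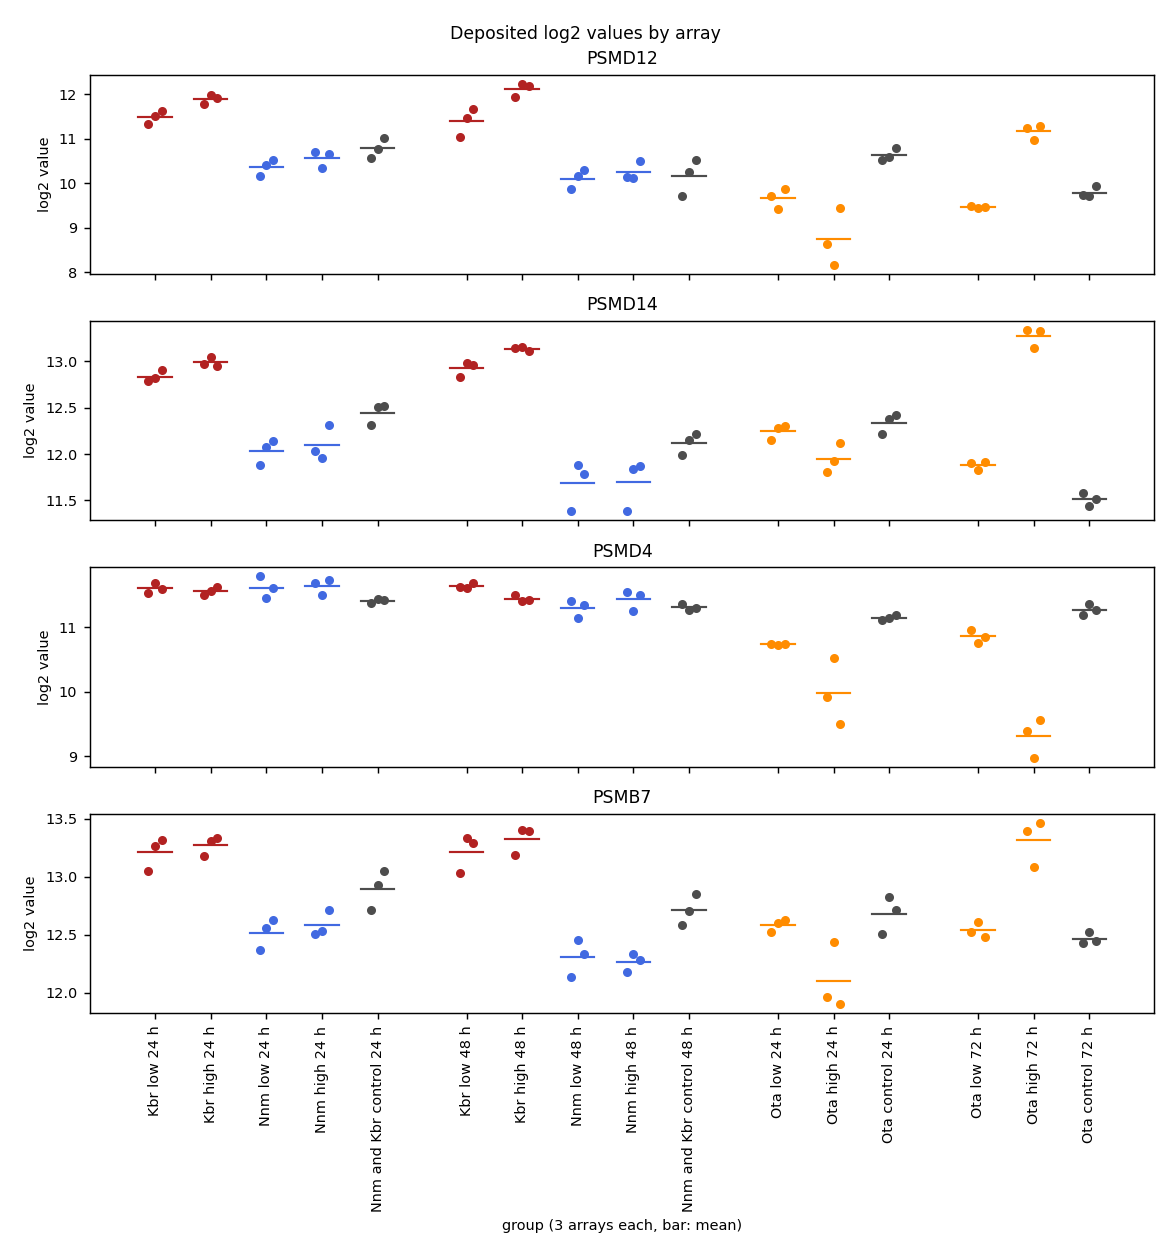
Deposited log2 values by array of the lid genes PSMD12 and PSMD14, the ubiquitin receptor gene PSMD4 and the catalytic subunit gene PSMB7, with Kbr (red), Nnm (blue) and Ota (orange) left of their controls (grey) at each time; dots are the 3 arrays, bars their mean, and each panel has its own axis, which does not start at 0. PSMD14 at 48 h lies at 13.11 to 13.15 with Kbr high and at 11.39 to 11.87 with Nnm high, and PSMD4 at 72 h lies at 8.98 to 9.56 with Ota high, below its controls.

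Ota at the high dose for 72 h raised 18 members and lowered 2, where calls among all genes were 25.3% higher and 37.9% lower. Of the 20 calls 11 were at least 2-fold, the most of any treated group. The members' median change was 0.41 against −0.15 over all genes. Lid genes had the largest median, 1.31 with 5 of 6 higher, followed by the base ATPases at 1.15 with 3 of 5 higher. The alpha ring had 3 of 6 higher at a median of 0.35, the catalytic genes 1 of 3 at 0.04, and the other beta ring genes 2 of 4 higher and 1 lower at 0.53. Of the 3 assembly chaperones 2 rose, at a median of 0.38.

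PSMD3, a lid scaffold gene, lay at 11.11, 11.12 and 11.34 with Ota high against 9.47, 9.45 and 9.21 in controls of 72 h and rose by 1.81 ± 0.13 (adjusted p = 1.32e-08). PSMD1, a scaffold of the base, lay at 12.28, 12.27 and 12.23 against 10.40, 10.54 and 10.47 and rose by 1.79 ± 0.101 (adjusted p = 1.3e-09). PSMD14 lay at 13.34, 13.14 and 13.33 against 11.58, 11.44 and 11.52 and rose by 1.76 ± 0.113 (adjusted p = 4.9e-09). In all 3 genes the treated arrays were more than 1.5 units above every control.

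The RNA of 2 subunit genes fell in the same arrays. PSMD4 lay at 9.40, 8.98 and 9.56 with Ota high and at 11.19, 11.36 and 11.27 in controls, a fall of 1.96 ± 0.198 (adjusted p = 4.84e-07) and the largest of any member in any group. Its other 2 probe sets with a mean above log2 4 differed by −2.09 each. The beta ring gene PSMB4 lay at 11.75, 11.50 and 12.06 against 12.56, 12.75 and 12.82 and fell by 0.94 ± 0.154 (adjusted p = 6.69e-05). A second PSMB4 probe set differed by −1.02 and a dimmer one differed by 0.06. Among the catalytic genes PSMB7 had 13.40, 13.08 and 13.46 with Ota high against 12.43, 12.52 and 12.45 and rose by 0.85 ± 0.147 (adjusted p = 0.000118), while PSMB5 at −0.22 and PSMB6 at 0.04 were not called.

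At the high dose for 24 h the direction was mostly the other one, in arrays of lower overall signal. 15 members fell and 3 rose, where 43.6% of all genes were called lower and 21.4% higher, so the share of members called lower, 15 of 30, is near that of all genes. The members' median was −0.33 and that of all genes −0.29, and quantile normalization moves that of all genes to −0.07 and the higher share of all calls from 32.9% to 43.9%. PSMD12 had 8.63, 8.17 and 9.44 with Ota high against 10.53, 10.59 and 10.79 in controls, a fall of 1.89 ± 0.231 (adjusted p = 3.44e-06). Its other probe set was higher by 1.30 in the same arrays and by 0.93 at the low dose, where the first fell by 0.97 ± 0.231 (adjusted p = 0.0103), so these data give no single direction for PSMD12 at 24 h. With the mean of both probe sets neither difference was called (adjusted p = 0.118 and 0.967). PSMA5 and PSMD11 also fell with Ota high 24 h, by 1.00 and 0.49, while the other probe set of each was higher, by 5.18 and 2.41.

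The assembly chaperone gene PSMD9 lay at 9.02, 9.20 and 8.40 against 10.39, 10.18 and 10.59 and fell by 1.51 ± 0.183 (adjusted p = 3.13e-06). PSMD4 lay at 9.91, 10.51 and 9.50 against 11.11, 11.14 and 11.18 and fell by 1.17 ± 0.198 (adjusted p = 9.26e-05). PSMB5, PSMB7 and PSMD14 fell by 0.57, 0.58 and 0.39, and PSMB6 at −0.03 was not called. With the mean of its probe sets PSMB7 was higher by 0.36 without a call, since a second one, which averages below log2 4, was higher by 1.29. The 3 that rose were PSMD2 by 0.52 ± 0.144, the ATPase gene PSMC2 by 0.45 ± 0.104 and PSMD1 by 0.31.

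The low dose of Ota moved fewer members. At 24 h 4 fell and 0 rose, where 9.99% of all genes were called lower and 3.72% higher, and PSMD12 was followed by PSMA5, by 0.69 ± 0.135, PSMD2 by 0.54 and PSMB4 by 0.51. The fall of PSMA5 rests on 1 of its probe sets, since the other was higher by 4.53, and the mean of both was higher by 1.92. At 72 h 3 rose and 2 fell, where 9.01% were called higher and 7.02% lower, so both counts are near the shares of all genes. PSMD3 rose by 0.50 ± 0.13, PSMD1 by 0.44 ± 0.101 and PSMD14 by 0.37, while PSMA5 fell by 0.55 ± 0.135 and PSMA3 by 0.49 ± 0.123. PSMA5 was again higher, by 0.69, as the mean of its probe sets. At 24 h the count was 2 without any 1 of the 3 controls or low dose replicate 1, and 1 without low dose replicate 2. At 72 h it was 1 without control replicate 3 and 3 without low dose replicate 1 or 3.

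At 72 h the high dose differed directly from the low dose in 22 members, 19 higher and 3 lower, where 20.9% of all genes were called higher and 37% lower. PSMD12 was higher by 1.69 ± 0.231 and PSMD14 by 1.39 ± 0.113, and PSMD4 was lower by 1.55 ± 0.198 and the ATPase gene PSMC3 by 0.74 ± 0.307 (adjusted p = 0.0488). The response to the high dose at 72 h also differed from that at 24 h in 22 members, 20 higher and 2 lower at 72 h, where 32.7% of all genes were called higher and 20.6% lower. The median difference of the members was 0.97 against 0.20 over all genes. PSMD12 differed by 3.26 ± 0.326 (adjusted p = 1.56e-06), or by 2.06 with the mean of its probe sets, and PSMD14 by 2.15 ± 0.16 (adjusted p = 1.21e-07). PSMB4 differed by −0.87 ± 0.217 and PSMD4 by −0.80 ± 0.28 (adjusted p = 0.0257), and PSMD4 was without a call as the mean of its probe sets (adjusted p = 0.0537).

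With Ota high 72 h all 3 immunoproteasome genes were called lower, PSMB9 at −4.20 and PSMB10 at −3.79. Of 4 activator and inhibitor genes 3 were lower, PSME1 at −1.37 and PSME4 at −0.46. Of 6 assembly factors that are not members 3 fell, PSMG1 by 1.70, and POMP, the core maturation factor, rose by 1.07. Of 6 further subunits and bound enzymes 4 rose, the ubiquitin ligase gene UBE3C by 1.75, and ECPAS fell by 1.14. Of 7 ubiquitin and p97 genes 4 rose, NPLOC4 by 1.30 and UFD1 by 1.01, and of 8 shuttle and zinc finger genes 4 rose, UBQLN2 by 1.23 and RAD23B by 0.93, and 2 fell. Of 7 NRF2 targets 2 rose and 2 were lower, NQO1 at −3.55 and SLC7A11 at −3.35, and of 6 heat shock genes 2 rose, BAG3 by 2.05 and HSPH1 by 2.04. MAFF rose by 1.89 and MAFG by 1.30. The 3 prime minus 5 prime difference of ACTB, a sign of RNA quality, was 1.66 to 2.30 with Ota high and 1.16 to 1.51 in controls of 72 h, and its part in these differences was not tested.

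At 24 h genes of the same lists were called lower with Ota high, the activator genes PSME3 at −3.29 and PSME4 at −2.19, the immunoproteasome genes PSMB9 at −3.14 and PSMB8 at −0.53, and the assembly factor genes PAAF1 at −3.12 and PSMG1 at −2.30. UCHL5 was at −2.92, ECPAS at −1.02, VCP at −1.10, ZFAND5 at −1.68 and UBQLN1 at −1.23. The heat shock genes CHORDC1 and DNAJB1 were at −3.42 and −2.55, and the NRF2 targets HMOX1 and TXNRD1 at −0.92 and −0.56. MAFF rose by 2.54 and the p97 adaptor gene FAF2 by 0.71, and KEAP1 was lower at −1.28.

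**Figure D3:**
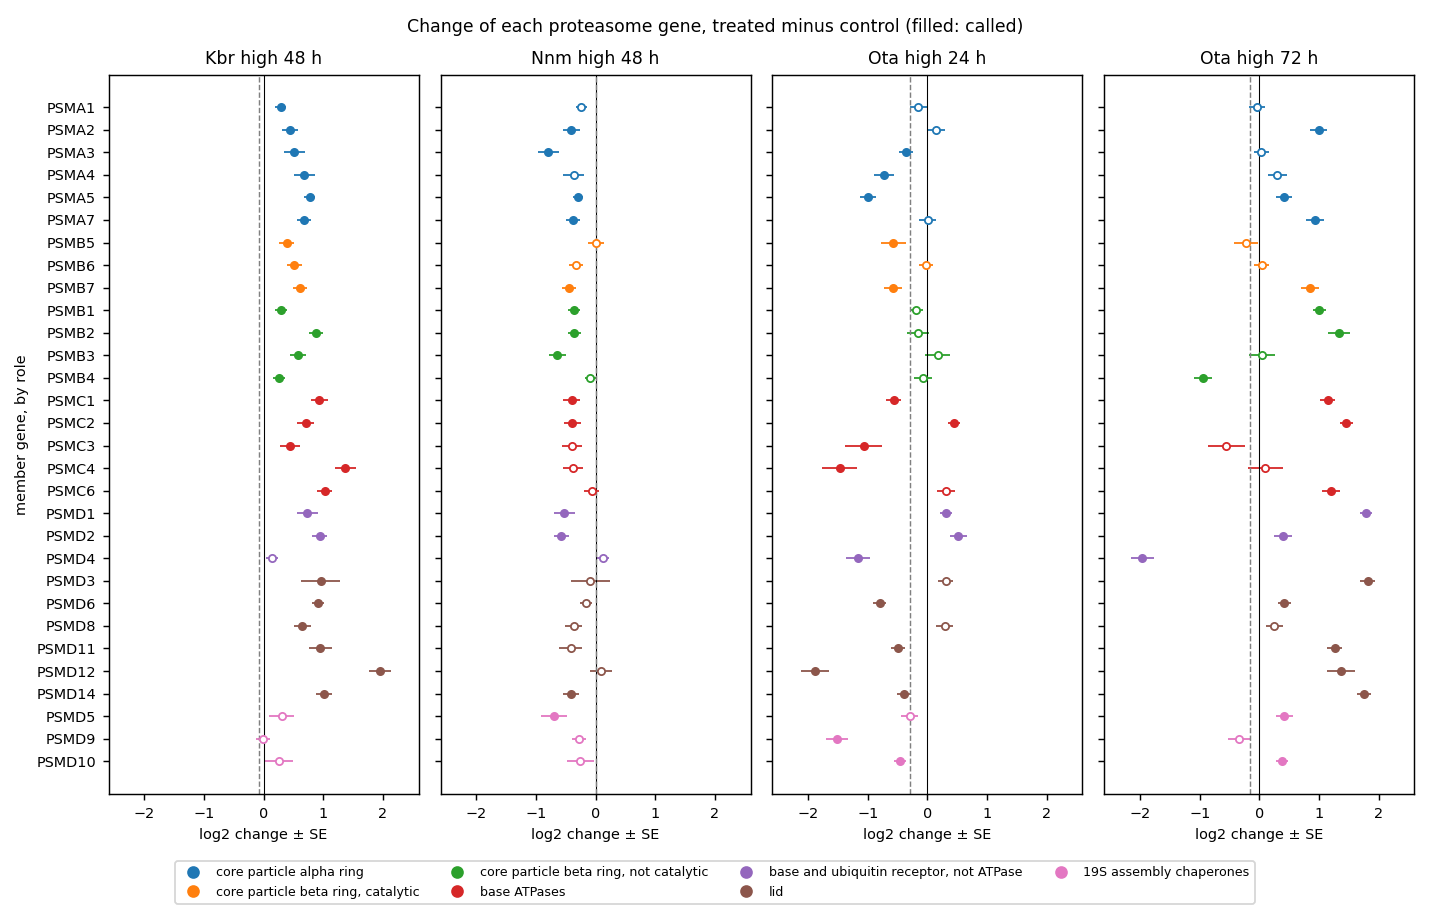
Log2 change ± SE of each of the 30 members, treated minus control, in Kbr high 48 h, Nnm high 48 h, Ota high 24 h and Ota high 72 h, coloured by role; filled points were called and the dashed line is the median of all genes tested. Of the roles, the lid has the highest median in Kbr high 48 h, 0.95, and in Ota high 72 h, 1.31, where the single genes furthest right are the lid gene PSMD3 and the base scaffold gene PSMD1.

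CdCl and Di, which shared their controls, raised members at 48 h. Di raised 17 and lowered 1, where calls among all genes were 21.4% higher and 25.9% lower, with a median of 0.26 against −0.02 over all genes. PSMD3 had 9.68, 9.66 and 9.73 with Di against 8.69, 9.09 and 8.91 in controls and rose by 0.79 ± 0.115 (adjusted p = 4.19e-05). PSMB7 had 13.18, 13.00 and 12.96 against 12.44, 12.35 and 12.47 and rose by 0.63 ± 0.0797 (adjusted p = 1.11e-05). Neither gene's groups overlapped. Among the genes that rose with Di, PSMA5, PSMB2, PSMC2, PSMD11 and PSMD12 had further probe sets that were lower than in controls. These differed by −2.21 for PSMA5, −0.07 and −0.42 for PSMB2, −0.57 and −0.38 for PSMC2, −0.30 for PSMD11 and −0.28 for PSMD12. For the other genes that rose, no further probe set with a mean above log2 4 was opposed.

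PSMD14 rose by 0.51 with Di and PSMB6 by 0.34, while PSMB5 at 0.20 and PSMD4 at −0.12 were not called. The 1 member that fell was PSMD5, at 9.43, 9.31 and 9.33 with Di against 9.84, 9.81 and 9.95 in controls, by 0.51 ± 0.0981 (adjusted p = 0.000542). All 7 NRF2 targets rose with Di, HMOX1 by 5.36 and SRXN1 by 3.97, 5 of 6 heat shock genes rose, BAG3 by 1.75 and HSPH1 by 1.74, and 2 of 3 immunoproteasome genes rose, PSMB9 by 0.75 and PSMB10 by 0.47. PSME4 rose by 1.50, POMP by 0.48, PAAF1 by 0.32, ECPAS by 0.55, SEM1 by 0.49, MAFF by 1.96, MAFG by 1.51, UFD1 by 0.34, NSFL1C by 0.33, SQSTM1 by 1.31 and ZFAND2A by 0.92.

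CdCl raised 14 members at 48 h and lowered 0, where calls among all genes were 22.9% higher and 23.5% lower, with a median of 0.18. PSMD12 had 10.65, 10.72 and 10.75 against 10.07, 10.09 and 10.10 and rose by 0.62 ± 0.0749 (adjusted p = 7.64e-06), and the lid gene PSMD8 rose by 0.56 ± 0.123. PSMB7, PSMD14 and PSMB6 rose by 0.49, 0.46 and 0.44, and PSMB5 at 0.05 and PSMD4 at −0.09 were not called. Of 7 NRF2 targets 6 rose, HMOX1 by 6.02 and GCLM by 2.87, and all 6 heat shock genes rose, BAG3 by 1.87 and HSPH1 by 1.67. PSMB9 rose by 0.80 and PSMB10 by 0.69, and PSMB8 fell. PSME4 and PSME3 rose by 0.91 and 0.85, PAAF1 by 0.75, ADRM1 by 0.44, MAFF by 2.20, MAFG by 0.91, UFD1 by 0.63, VCP by 0.62, ZFAND2A by 2.91 and SQSTM1 by 0.75, and PSMG2 fell by 0.45.

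At 12 h Di raised 8 members and lowered 0, where calls among all genes were 3.61% higher and 8.23% lower, with a higher share of 30.5% of calls that quantile normalization moves to 42.4%. The ATPase genes PSMC1 and PSMC3 rose by 0.42 ± 0.105 (adjusted p = 0.021) and 0.38 ± 0.111 (adjusted p = 0.0411). The ACTB difference was 1.23 to 1.55 with Di 12 h and 1.82 to 2.09 in its controls, without overlap, and its part was not tested. The count was 5, 3 and 4 without Di replicates 1, 2 and 3, 1 and 3 without control replicates 2 and 3, and 0 in a fit of only these 6 arrays, with 12 members at an unadjusted p under 0.05 in the fit of all 18. CdCl raised 4 and lowered 3 at 12 h, where 14.5% of all genes were called higher and 34.3% lower. Out of 30 members neither count is above these shares. PSMD12 rose by 0.37 ± 0.0749 and PSMD14 by 0.30 ± 0.0893, while PSMD3 fell by 0.63 ± 0.115, PSMD5 by 0.42 ± 0.0981 and PSMD4 by 0.40.

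The response to CdCl at 48 h differed from that at 12 h in 9 members, all higher at 48 h, where 21.1% of all genes were called higher and 9.34% lower. PSMD3 differed by 1.07 ± 0.163 and PSMD9 by 0.68 ± 0.106. With Di 6 members were higher and 3 lower at 48 h, where 17.5% were called higher and 16.2% lower, or 5 in all without Di 12 h replicate 1 and in a fit of only those arrays. PSMD3 differed by 1.03 ± 0.163 and PSMA4 by 0.47 ± 0.0893, PSMC3 by −0.43 ± 0.157 and PSMD5 by −0.38 ± 0.139.

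Compared directly at 12 h, 11 members were lower with CdCl than with Di and 0 higher, where 25.9% of all genes were called lower and 15.2% higher. PSMD3 was lower by 0.39 ± 0.115 and PSMB2 by 0.36 ± 0.0723. The count was 7 without CdCl replicate 1 and 5 without Di replicate 3. At 48 h 5 were higher and 7 lower, where 23.6% were called higher and 19% lower. Out of 30 members these counts are near or under the shares of all genes. PSMD8 was higher with CdCl by 0.49 ± 0.123 and PSMD9 by 0.38 ± 0.0751. PSMA1 was lower by 0.56 ± 0.118 and PSMD11 by 0.50 ± 0.0721, and with the mean of its probe sets PSMD11 differed by 0.15 in the other direction, without a call.

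With Aa at the high dose for 48 h 9 members rose and 3 fell, where calls among all genes were 29.8% higher and 34.5% lower, so neither count of members is above the share of all genes by more than 1 member. The 3 prime minus 5 prime difference of ACTB was 1.14 to 1.69 with Aa high 48 h and 0.772 to 1.15 in its controls, higher in each of 3 same-numbered pairs, and its part in these changes was not tested. Of the 9 that rose, 3 were core particle genes, PSMB5, PSMB6 and PSMA7. PSMD2 lay at 12.52, 12.55 and 12.76 with Aa against 11.60, 11.57 and 11.93 in controls and rose by 0.91 ± 0.122 (adjusted p = 1.08e-05). PSMC4 lay at 11.15, 10.75 and 11.47 against 10.17, 10.02 and 10.63 and rose by 0.86 ± 0.21 (adjusted p = 0.00226). PSMB5 rose by 0.58, more than with any other treatment, PSMD4 by 0.41 and PSMB6 by 0.37, while PSMB7 at 0.04 and PSMD14 at −0.24 were not called.

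PSMA3 fell with Aa high 48 h by 0.54 ± 0.113, PSMD1 by 0.48 ± 0.135 and PSMC2 by 0.33. PSMC2 has 2 further probe sets above log2 4, and 1 of these was higher by 0.30. PSMB10 rose by 0.39 and PSMB9 fell by 0.80, PSMF1 and PSME1 fell by 0.78 and 0.33, PSMG3 rose by 0.84 and PSMG1 fell by 1.42, and ADRM1 rose by 0.89 and ECPAS fell by 0.62. NSFL1C and NPLOC4 rose by 0.75 and 0.69, UBQLN4 by 1.15, ZFAND2A by 2.89, MAFF by 2.65, MAFG by 1.88, CHORDC1 by 1.43, BAG3 by 0.87 and NQO1 by 0.78, and SLC7A11 fell by 2.48.

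At the low dose for 48 h 5 members rose and 2 fell, where 17.7% of all genes were called higher and 19.3% lower. Out of 30 members neither count is above these shares. PSMD5 rose by 0.58 ± 0.115 and PSMB5 by 0.47 ± 0.123, and PSMD4 fell by 0.39 ± 0.103 and PSMA3 by 0.37 ± 0.113. PSMD4 thus lay below its controls at the low dose and above them at the high dose, with 10.87, 10.93 and 10.95 at the low dose, 11.55, 11.75 and 11.87 at the high dose and 11.28, 11.22 and 11.43 in controls, and no group overlapped another. Between the doses 4 members were higher and 3 lower at the high dose, where 20.3% of all genes were called higher and 24.5% lower, so both shares are larger among all genes. PSMD4 was higher by 0.81 ± 0.103 (adjusted p = 2.66e-05) and PSMD12 by 0.66 ± 0.213, and PSMC2 and PSMD9 were lower by 0.37 ± 0.114 and 0.37 ± 0.101.

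At 24 h 1 member was called in each dose group of Aa. PSMD4 fell at the low dose, with 10.74, 10.77 and 10.83 against 11.31, 11.50 and 11.56, by 0.68 ± 0.103 (adjusted p = 0.000324), where 13% of all genes were called lower and 10.2% higher. PSMD5 rose at the high dose by 0.37 ± 0.115 (adjusted p = 0.0151), where 26% were called higher and 23.9% lower. The response to the high dose differed between the times in 2 members, higher at 48 h, PSMD2 by 0.63 ± 0.172 and PSMD4 by 0.58 ± 0.146, where 6.63% were called higher and 12.2% lower. The replicate numbers pair the Aa cultures, and the block raised these counts. At 24 h 3 members rose and 2 fell with the low dose, where 16.8% of all genes were called higher and 20.7% lower under the block, and 6 rose and 1 fell with the high dose, beside 32.1% and 30%. At 48 h 13 rose and 3 fell with the low dose, beside 25.5% and 26.3%, and 15 rose and 6 fell with the high dose, beside 34.4% and 38.6%. Between the doses 7 were higher and 6 lower, beside 26.6% and 30.6%, and between the times 11 were higher and 2 lower at 48 h, beside 14.8% and 22.4%. Leaving out 1 array gave 3 and 4 members in Aa low 48 h (low dose replicate 3, control replicate 2), 0, 0 and 2 in Aa high 24 h (control replicate 1, high dose replicates 3 and 2), and 4 between the doses without high dose replicate 1 or 3. Between the times it gave 1 without high dose replicate 2 of 24 h, high dose replicate 3 of 48 h, control replicate 3 of 24 h or control replicate 2 of 48 h, and 5 without control replicate 3 of 48 h.

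**Figure D4:**
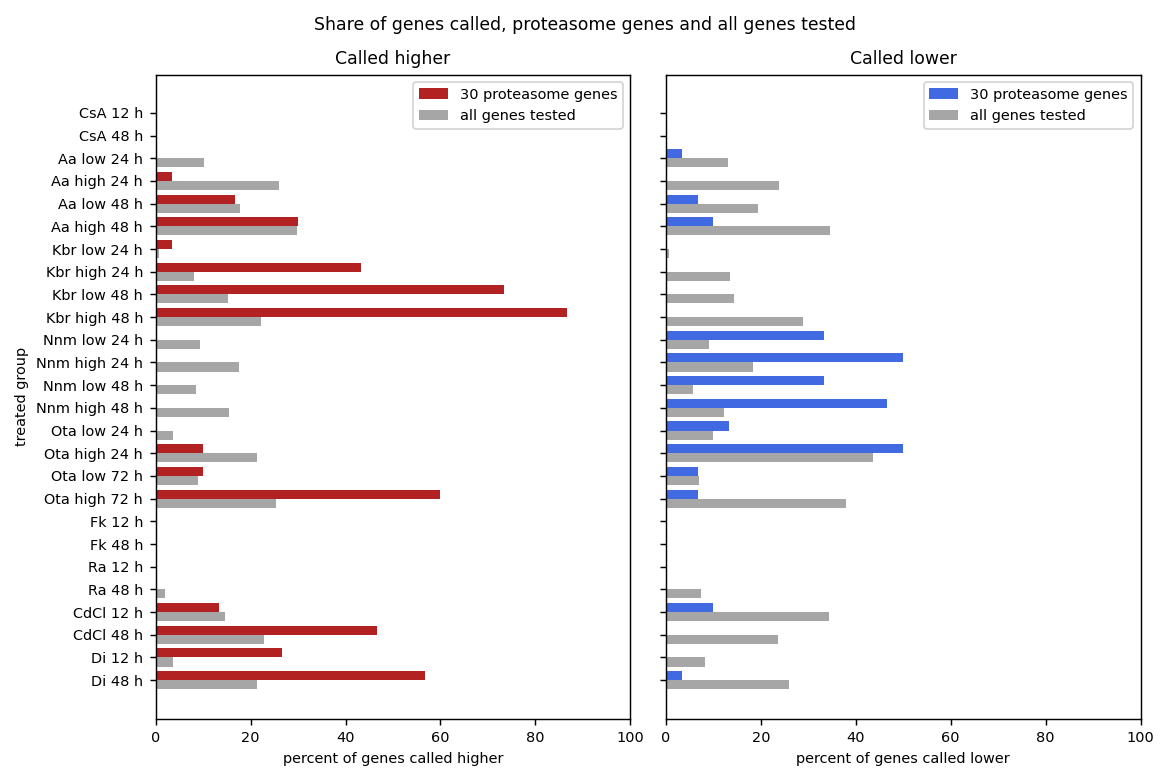
Percent of genes called higher (left, red) and lower (right, blue) among the 30 proteasome genes, with the percent among all genes tested (grey), for each of 26 treated groups. The red bar of Kbr high 48 h stands for 26 of 30 genes beside 22.2% of all genes, and the 4 Nnm groups have blue bars and no red ones.

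CsA, Fk and Ra gave 0 called members at 12 and 48 h, in either direction. Same-numbered CsA cultures deviated together, at r of 0.534 to 0.931, and with the replicate block 0 members were called with CsA too. Shares of all genes under that block were not counted for CsA. All genes called higher made up 0% and 0.00925% with CsA at 12 and 48 h, 0.00918% and 0% with Fk, and 0.0367% and 1.87% with Ra, and those called lower 0% in all but Ra 48 h, with 7.46%. Quantile normalization moved the higher share of calls from 20.1% to 50.6% in Ra 48 h. At an unadjusted p under 0.05 there were 0 and 1 members with CsA, 0 and 0 with Fk, and 1 and 6 with Ra, and without Ra 48 h replicate 1 there were 3 calls. The catalytic gene PSMB5 lay at 11.46, 11.32 and 11.37 with CsA for 48 h against 11.47, 11.43 and 11.55 in controls, and at 11.53, 11.84 and 12.07 with Fk for 48 h against 11.54, 11.74 and 12.21 in controls, so its groups overlapped in both. Between 48 and 12 h the change differed in 0 members with CsA (0% of all genes in either direction), 0 with Fk (0%) and 0 with Ra (0% higher, 0.0459% lower), with 1, 0 and 1 members at an unadjusted p under 0.05. Fk and Ra at 48 h differed in 0 members, where 6.36% of all genes were called higher with Fk and 1.04% lower, and 5 members had an unadjusted p under 0.05. Quantile normalization moved the higher share of those calls from 86% to 48.3% and called 2 members there and 3 in Ra 48 h.

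How closely a member followed the others was described by Pearson's r with the median of the other 29 over all 114 arrays, which share their compounds, controls and normalization. PSMB2 and PSMA7 followed most closely, at 0.91 and 0.893, and then PSMD11 and PSMC1 at 0.873 and 0.861. PSMD4, PSMD9 and PSMB4 followed least, at 0.169, 0.207 and 0.309. Of the 27 further probe sets of the members 18 had a mean above log2 4, and in 24 of the 131 cases where the used probe set was called such a further one differed from control in the opposite direction, in PSMA5, PSMB2, PSMB4, PSMC2, PSMD11 and PSMD12. In Kbr high 48 h the second PSMD12 probe set was higher by 0.89 and that of PSMA5 differed by −1.97. Both further PSMC2 probe sets were lower there, by −0.81 and −0.22, where the used one rose by 0.71. In Kbr low 48 h they differed by −0.45 and −0.11, where the used one rose by 0.59.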

How the data were processed

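The deposited table holds 1 log2 value for each of 54675 probe sets on 114 arrays, which the authors summarized with GCRMA per the submitters' processing notes, all data sets normalized together per the series' design text. No further normalization was applied. Of the probe sets 41091 carry 1 gene symbol, and a gene was represented by the one with the highest mean. Symbols were updated through RefSeq. The number of arrays limits the precision.

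Group means were fitted with limma 3.58.1 (R 4.3.3), 1 fit for each of 6 families of compounds with shared controls, on genes above log2 4 on at least 3 arrays of the family. Contrasts were each of 26 treated groups against its control, high minus low dose, the change at the later time minus that at the earlier one, and compounds with shared controls. P was adjusted by Benjamini-Hochberg over all genes of a contrast and called under 0.05. The fits were checked on simulated data with noise drawn independently for each array. That check does not cover cultures that deviate together. Tables and plots used Python 3.11.15 with pandas 2.3.3, numpy 2.4.6 and matplotlib 3.10.9.

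The members, lists and tests were chosen with earlier results of these data known. Named are, in each comparison, the 2 called members with the largest change each way, those called most and least often, the catalytic genes, PSMD4 and PSMD14 where at least 10 members were called, and the 2 called genes with the largest change of each list of other genes (54 of 63 such genes in 9 lists were found); further values, of PSMC2, PSMD1, PSMD2, PSMD4, PSMB4 and PSMB5, were added after they were seen. Replicate numbers were checked as pairs by correlating residuals of same-numbered arrays. Every r exceeded 0.1 for CsA (0.534 to 0.931), Aa (0.28 to 0.537) and Nnm with Kbr (0.139 to 0.673), so for these the count under a replicate block is printed where it moved by over 1.5 times. The alternatives tried were leaving out each array in turn, fitting only the arrays compared, averaging a gene's probe sets, quantile normalization, that block and no filter. Leaving out the Nnm arrays numbered 2 was added after seeing the data.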

Additional observations from a re-analysis of the deposited data

Results flagged for a closer look

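The change of members against the controls differed between times by the test of that difference in 4 compounds. With Ota high it differed in 22 members, among them PSMD12 by 3.26, PSMD14 by 2.15, PSMB4 by −0.87 and PSMD4 by −0.80, later minus earlier time. Of all genes 32.7% were called higher there and 20.6% lower. With the mean of its probe sets PSMD12 differed by 2.06, and PSMD4 was not called (limma adjusted p = 0.0537). With CdCl it differed in 9 members, all higher at 48 h, PSMD3 by 1.07 and PSMD9 by 0.68. Of all genes 21.1% were called higher there and 9.34% lower. With Di it also differed in 9, PSMD3 by 1.03, PSMA4 by 0.47, PSMC3 by −0.43 and PSMD5 by −0.38. With Aa high it differed in 2, PSMD2 by 0.63 and PSMD4 by 0.58. With the replicate block, which fits the paired Aa and Kbr cultures, the difference was called in 13 members for Aa high and in 6 for Kbr high, for which 0 were called without the block. Under it 14.8% of all genes were called higher and 22.4% lower for Aa high, and 3.14% and 4.58% for Kbr high.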

How the results depend on the processing

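Counts of members called moved by more than 1.5 times in 57 cases with 1 array left out and not in the other 255, and in 8, 15, 5, 13 and 2 of 43 with the mean of all probe sets, the replicate block, quantile normalization, only the arrays of a comparison and no filter. Over the 137 named changes, 4 changed sign, all with the mean of all probe sets, namely PSMA5 in Ota low 24 h (1.92) and Ota low 72 h (0.69), PSMB7 in Ota high 24 h (0.36) and PSMD11 in CdCl 48 h minus Di 48 h (0.15). A further PSMB7 probe set averages below log2 4. The cause of the other moves was not tested. The 3 arrays of a group limit all counts, and small changes may be missed.

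The counts in this section take both directions together. Beside the main fit, shares of all genes called were counted only under the block. Counts under the other settings therefore show only whether a count moved, and are not set against all genes. With the mean of all probe sets the counts were 5 in Aa low 24 h and in Aa high 24 h, 12 in Aa low 48 h, 7 in Ota low 24 h, 8 in Ota low 72 h, 5 in Di 12 h, 4 in the Aa time contrast and 6 in CdCl 12 h minus Di 12 h. With the replicate block they were 5 in Aa low 24 h, 7 in Aa high 24 h, 16 in Aa low 48 h, 21 in Aa high 48 h, 16 in Kbr low 24 h, 23 in Kbr high 24 h, 21 in Nnm low 24 h, 20 in Nnm low 48 h, 22 in Nnm high 48 h, 13 between the Aa doses, 8 between the Kbr doses, 13 between the Aa times and 6 between the Kbr times. In families whose numbers do not pair the cultures, where the lowest r was −0.0542 (Ota), −0.176 (Fk and Ra) and −0.274 (CdCl and Di), the block gave 1 in Ra 48 h and 4 in Di 12 h. The block moved no other count that far.

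Quantile normalization gave 3 in Aa high 24 h, 5 in Nnm low 24 h, 9 in Nnm high 24 h, 3 in Ra 48 h and 2 in Fk 48 h minus Ra 48 h. It moved the share of higher among all calls from 32.9% to 43.9% in Ota high 24 h, from 20.1% to 50.6% in Ra 48 h, from 100% to 66.7% in Ra 12 h, from 30.5% to 42.4% in Di 12 h, from 21.3% to 31.5% between the Kbr doses, from 0% to 40.8% between the Ra times and from 86% to 48.3% in Fk 48 h minus Ra 48 h. It moved the median of all genes by 0.21 in Ota high 24 h, 0.20 in Ra 48 h, 0.12 between the Ota doses, −0.16 between the Ota times, 0.23 between the Ra times and −0.24 in Fk 48 h minus Ra 48 h. Only the arrays of the comparison gave 3 in Aa low 48 h, 2 in Kbr low 24 h, 1 in Nnm low 24 h and in Nnm high 24 h, 0 in Nnm low 48 h, Nnm high 48 h, Di 12 h and between the Kbr doses, 7 in Ota low 24 h, 10 in Ota low 72 h, 1 in Ra 12 h, 5 between the Di times and 3 in CdCl 12 h minus Di 12 h. Without the filter there were 2 in Kbr low 24 h and between the Kbr doses. Without the Nnm arrays numbered 2 there were 16 in Nnm low 48 h, 1 between the Nnm doses and 1 between its times, in this alternative chosen after seeing the data.

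Leaving out 1 array in turn gave 0 to 2 in Aa high 24 h, 3 to 10 in Aa low 48 h, 0 to 3 in Kbr low 24 h, 14 to 24 in Kbr low 48 h, 1 to 7 in Nnm low 24 h, 4 to 13 in Nnm high 24 h, 1 to 13 in Nnm low 48 h, 3 to 17 in Nnm high 48 h, 1 to 3 in Ota low 24 h, 1 to 4 in Ota low 72 h, 0 to 3 in Ra 48 h, 1 to 6 in Di 12 h, 4 to 6 between the Aa doses, 0 to 2 between the Kbr doses, 0 to 1 between the Nnm doses, 1 to 5 between the Aa times, 0 to 1 between the Nnm times, 5 to 8 between the Di times and 5 to 10 in CdCl 12 h minus Di 12 h. A group left with 2 arrays was tested with the spread of its family.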
